A study of Homo sapiens with 6 samples.

Results

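UBB and RPS27A, 2 of the 16809 genes listed in the table, encode ubiquitin, and they were taken from it by gene symbol. UBB is a polyubiquitin gene, whose product is a chain of ubiquitin units joined head to tail. RPS27A is a fusion gene, whose product joins ubiquitin to a protein of the small ribosomal subunit. Both were chosen by gene family, with their TPM in ES-Cu and control libraries already known, so their differences between the groups are given as a description, without a test.

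Ubiquitin is a small protein that is attached to other proteins and marks many of them for the proteasome. It is made as precursors, which proteases cut into single units. In human and other mammalian cells UBB is known as a stress-inducible gene with a place in the heat shock response, whereas the fusion gene supplies ubiquitin and a ribosomal protein in equal amounts from each precursor.

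The cells were CAL-27, a human tongue squamous carcinoma line, and total RNA was sequenced in 3 libraries of each of 2 groups. The ES-Cu libraries came from cells given elesclomol, a copper ionophore, together with copper in an equal ratio for 24 h, and the control libraries from untreated cells of the same line. No dose is stated in the labels, and a time is given for the ES-Cu libraries only. Nor is it stated whether the 3 libraries of a group came from separate cultures, so the spread between them may be technical. The study set out to describe the transcriptome during cuproptosis, a form of cell death triggered by copper. Values are TPM, shares of a fixed total that are corrected for transcript length, so levels of different genes can be compared.

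The 6 libraries had 14959 to 15051 genes above 0, and TPM carries no information on depth. All 9 squamous epithelial markers looked for were tested, with a summed level of 2931 to 2982 TPM in ES-Cu libraries and 2530 to 2651 TPM in control libraries. Of the other cell types looked for, 5 fibroblast markers in the table summed to 4.72 to 5.26 TPM in ES-Cu and 11.4 to 11.6 TPM in control. COL1A2, COL3A1 and LUM among these 5 stayed below 1 TPM in every library. The 3 endothelial markers summed to 1.28 to 1.87 TPM in ES-Cu and 7.14 to 7.47 TPM in control, with PECAM1 and VWF below 1 TPM in every library. The 3 leukocyte markers in the table summed to 49.1 to 54.1 TPM in ES-Cu and 59.6 to 66.1 TPM in control. PTPRC, the pan-leukocyte surface phosphatase, and LYZ stayed below 1 TPM in every library, so 1 marker held nearly the whole sum. The part of these markers in the results below was not tested.

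The ubiquitin-coding bases of both genes are shown because they decide whether 50-base reads can tell the genes apart. They come from GENCODE release 29 on GRCh38, which places UBB at chr17:16380798-16382745 and RPS27A at chr2:55231903-55235853, both on the plus strand. The coding sequence of the UBB transcript UBB-201 lies in 1 exon and holds 3 ubiquitin units followed by 1 extra residue. That of RPS27A-201 spans 5 exons and holds 1 unit followed by 80 residues of the ribosomal protein. Each unit has 228 bases for 76 residues, read 5′ to 3′, and capitals mark the bases that differ from the first unit of UBB.
UBB unit 1: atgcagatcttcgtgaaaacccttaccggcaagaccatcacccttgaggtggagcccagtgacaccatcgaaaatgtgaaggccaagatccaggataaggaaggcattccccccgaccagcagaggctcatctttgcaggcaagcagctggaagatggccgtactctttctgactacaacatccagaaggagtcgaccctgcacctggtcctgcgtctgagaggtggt
UBB unit 2: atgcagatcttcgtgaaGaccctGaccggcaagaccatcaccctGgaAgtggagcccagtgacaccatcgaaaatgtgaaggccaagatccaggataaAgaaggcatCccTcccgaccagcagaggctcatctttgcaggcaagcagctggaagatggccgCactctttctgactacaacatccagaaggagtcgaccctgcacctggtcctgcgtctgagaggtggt
UBB unit 3: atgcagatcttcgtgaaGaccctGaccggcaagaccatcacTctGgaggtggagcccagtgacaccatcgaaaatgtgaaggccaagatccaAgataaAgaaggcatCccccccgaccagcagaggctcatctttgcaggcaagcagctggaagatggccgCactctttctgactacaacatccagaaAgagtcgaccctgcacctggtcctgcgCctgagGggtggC
RPS27A unit: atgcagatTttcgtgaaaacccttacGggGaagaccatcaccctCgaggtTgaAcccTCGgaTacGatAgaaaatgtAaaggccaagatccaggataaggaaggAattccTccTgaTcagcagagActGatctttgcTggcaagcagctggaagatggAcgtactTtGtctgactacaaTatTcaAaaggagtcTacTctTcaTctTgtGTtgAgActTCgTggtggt

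All 4 units encode the same 76 residues, with 0 differences, so every capital above is a silent change. Units 2 and 3 of UBB differ from its first unit at 8 and 12 bases, an identity of 96.5% and 94.7%. The RPS27A unit differs from it at 38 bases, an identity of 83.3%. The longest run of bases that the RPS27A unit shares with any UBB unit is 26, against 66 and 53 for the first UBB unit with the second and the third, and 77 for the second with the third. Accordingly, 0 of the 1176 stretches of 50 bases in the UBB transcript occur in RPS27A transcripts.

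Both genes do share such stretches with other genes. In UBB, 530 of 1176 stretches (45.1%) occur without a mismatch in transcripts of other genes. In RPS27A, 388 of 1022 stretches (38.0%) do so. Within the coding sequence the shares are higher, 70.5% for UBB and 80.6% for RPS27A. Over the whole transcripts, 181 UBB stretches and 0 RPS27A stretches also repeat within their own transcript. Of those found in other genes, 455 of 530 for UBB and 140 of 388 for RPS27A occur in a gene not annotated as a pseudogene. No source used here says how reads with several matches were assigned, so the TPM of UBB and RPS27A may hold reads from such copies or lack some of their own.

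UBB stood about 3-fold higher in ES-Cu than in control. It had 8818, 8802 and 8488 TPM in ES-Cu libraries 1 to 3, against 3055, 2757 and 2899.7 TPM in control libraries 1 to 3. The groups did not overlap, with a gap of 5433 TPM between the lowest ES-Cu and the highest control library. The means were 8703 ± 186 TPM in ES-Cu and 2904 ± 149 TPM in control (SD, n = 3 each), a ratio of 2.997. Among the 11927 genes that averaged 1 TPM or more over the libraries, 14.0% lay wholly above control and 70.3% wholly below it. In a culture, a change in the number of cells of one kind and a change in RNA per cell cannot be told apart, and a fixed total also ties each share to all others.

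RPS27A stood lower in ES-Cu as deposited, by a much smaller amount. Its level was 3314, 3326 and 3311 TPM in ES-Cu libraries 1 to 3 and 3823, 3985 and 3978 TPM in control libraries 1 to 3. These groups did not overlap either, and the gap between them was 496 TPM. The means were 3317 ± 8.12 TPM in ES-Cu and 3929 ± 92.0 TPM in control (SD, n = 3 each), a ratio of 0.844. Being wholly below control was the common state of genes here, as the 70.3% above shows, and nothing is read from it for RPS27A.

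**Figure D1:**
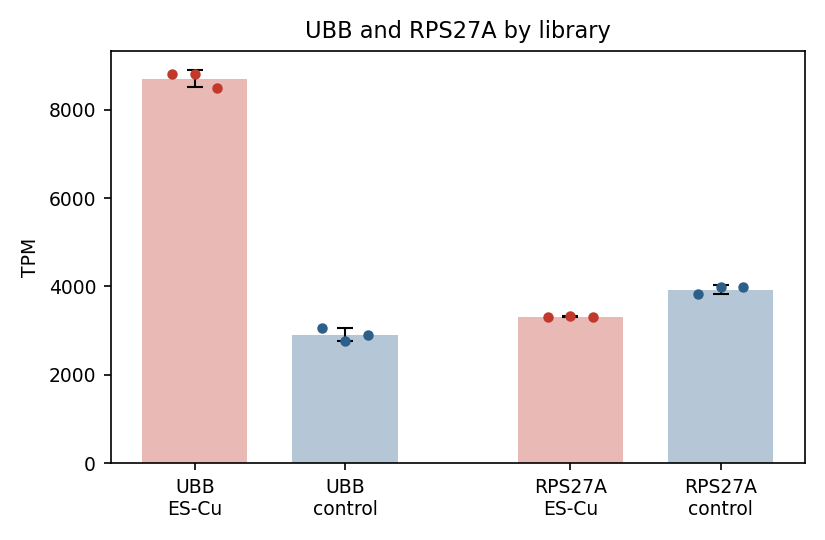
TPM of UBB and RPS27A in each library (points), with the group mean (bars, from 0) and SD (error bars, n = 3). UBB averages 8703 TPM in ES-Cu and 2904 TPM in control, and RPS27A 3317 TPM in ES-Cu and 3929 TPM in control.

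The order of both genes was reversed between the groups. UBB ranked 8th of all listed genes in each of the 3 ES-Cu libraries, against ranks 46, 54 and 50 in control libraries 1 to 3. RPS27A ranked 47, 48 and 48 in ES-Cu and 33, 32 and 31 in control. UBB transcripts made up 0.870% ± 0.0186 of all TPM in ES-Cu and 0.290% ± 0.0149 in control, and RPS27A transcripts 0.332% ± 0.000812 in ES-Cu and 0.393% ± 0.00920 in control (SD, n = 3 each). Summed, both genes took 1.20% ± 0.0191 of TPM in ES-Cu and 0.683% ± 0.00780 in control.

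The ratio of UBB to RPS27A within a library is unaltered by any scaling that applies 1 factor to the whole library. It was 2.66, 2.65 and 2.56 in ES-Cu libraries 1 to 3 and 0.799, 0.692 and 0.729 in control libraries 1 to 3. UBB thus lay above RPS27A in each ES-Cu library and below it in each control library. The log2 ratio averaged 1.39 ± 0.0291 in ES-Cu and -0.44 ± 0.105 in control (SD, n = 3 each), a difference of 1.83. It was 1.77 under quantile normalization, which does not apply such a factor. With 3 units per UBB transcript and 1 per RPS27A transcript, UBB carried 88.7% ± 0.203 of the ubiquitin units encoded by both genes together in ES-Cu and 68.9% ± 1.56 in control. Those shares count the transcripts of these 2 genes only. Like the ratio, they rest on TPM that may hold reads from other copies or lack some, which these SDs do not cover.

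**Figure D2:**
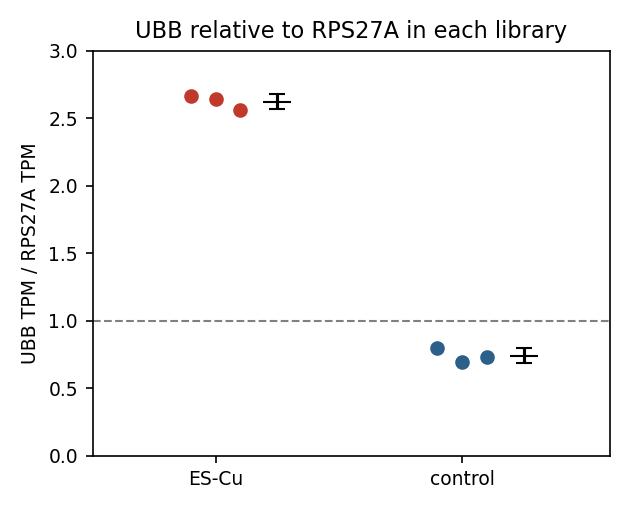
UBB TPM divided by RPS27A TPM in each library (points), with the group mean and SD beside them (n = 3); the dashed line marks equal levels. ES-Cu libraries lie between 2.56 and 2.66 and control libraries between 0.692 and 0.799.

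The direction of UBB did not depend on the scaling of the libraries, whereas that of RPS27A did. On the log2(TPM + 1) scale the fold change of UBB, ES-Cu over control, was 1.58 as deposited, 2.13 after median-of-ratios scaling and 1.38 after quantile normalization. That of RPS27A was -0.24 as deposited, 0.30 after median-of-ratios scaling and -0.39 after quantile normalization. The median tested gene stood at -0.50 as deposited, so RPS27A lay 0.26 above it and UBB 2.09 above it. The median gene was at -0.01 after median-of-ratios scaling and at -0.07 after quantile normalization. Of the 11927 tested genes, 144 (1.21%) had a higher fold change than UBB and 3913 (32.8%) a higher one than RPS27A.

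**Figure D3:**
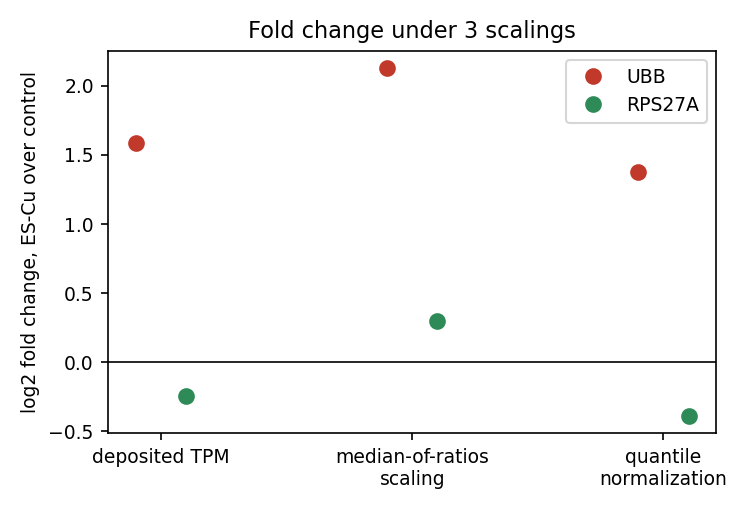
Log2 fold change of UBB and RPS27A, ES-Cu over control, as deposited, after median-of-ratios scaling and after quantile normalization. UBB lies at 1.58, 2.13 and 1.38 and RPS27A at -0.24, 0.30 and -0.39, so that RPS27A crosses 0.

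RPS27A was next set beside the other proteins of the ribosome, of which its ribosomal portion is one. On the deposited scale, 13.6% of all tested genes were called higher and 70.0% lower at an adjusted p under 0.05 (limma, Benjamini-Hochberg over all tested genes). Of the 31 other genes listed for the 40S subunit, 7 were called higher and 8 lower, with a median log2 fold change of -0.05 and a range of -0.36 to 0.23. Under quantile normalization 4 were called higher and 17 lower, where 31.7% of all tested genes were called higher and 39.2% lower. After median-of-ratios scaling all 31 were called higher, where 37.1% of all tested genes were called higher and 36.5% lower. Only RPS15, RPS19 and RPS10, with fold changes of -0.36, -0.25 and -0.25 on the log2 scale, stood below RPS27A at -0.24. After median-of-ratios scaling these 3 genes were at 0.18, 0.29 and 0.30.

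The level of RPS27A was also set against that list within each library. As deposited, its log2 level lay 0.49, 0.49 and 0.49 above the mean log2 level of the 31 genes in ES-Cu libraries 1 to 3 and 0.66, 0.74 and 0.72 above it in control libraries 1 to 3. The difference was -0.22, with SDs over 3 libraries of 0.00176 in ES-Cu and 0.0396 in control. By mean level, 12 of the 31 genes stood above RPS27A in ES-Cu and 11 in control. For UBB, 1 of the 31 genes stood above it in ES-Cu and 14 in control.

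FAU, which fuses a ubiquitin-like protein to another 40S protein, did not pass the test on the deposited scale. It had 2956, 3051 and 3140 TPM in ES-Cu libraries 1 to 3 and 2946, 2960 and 2822 TPM in control libraries 1 to 3. The highest control library lay just above the lowest ES-Cu library, so the groups overlapped. The log2 fold change was 0.07 (SE 0.0377, adjusted p = 0.115, limma), 0.61 after median-of-ratios scaling and -0.08 after quantile normalization. The list of 46 genes for the 60S subunit had a median of -0.04, with 8 called higher and 14 lower on the deposited scale and 44 and 0 after median-of-ratios scaling. Under quantile normalization 2 were called higher and 19 lower. As deposited, 6 of the 46 genes had a fold change below that of RPS27A. RPL32, RPL15 and RPL23A, at -0.60, -0.49 and -0.35 on the log2 scale, were the members with the largest change. The count of 8 was 4 without control replicate 3 and 4 without ES-Cu replicate 2.

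UBB was likewise set beside heat shock chaperone genes, which fold or hold damaged proteins. Of 24 such genes, 21 were called higher and 1 lower, and the same number, 21, was called higher in all 3 scalings, against 13.5% of all tested genes. Their median log2 fold change was 0.82. UBB, at 1.58, lay below 11 and above 13 of them. HSPA6, HSPA1A and HSPA1B, which encode inducible HSP70 chaperones, had the largest changes (10.22, 5.88 and 5.25). HSPA6 averaged 2406 TPM in ES-Cu and 1.02 TPM in control. Its control level is close to the 1 TPM added before the logarithm, so the size of its fold change depends on that value. Stretches of bases shared by these HSP70 genes were not looked for. The log2 level of UBB stood 3.73, 3.77 and 3.72 above the mean log2 level of the list in ES-Cu libraries 1 to 3 and 4.28, 4.16 and 4.18 above it in control libraries 1 to 3. That mean includes HSPA6, so it also depends in part on the added 1 TPM. The few largest changes weigh on it more than on the median. By mean level, 2 of the 24 genes exceeded UBB in ES-Cu and 0 in control.

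**Figure D4:**
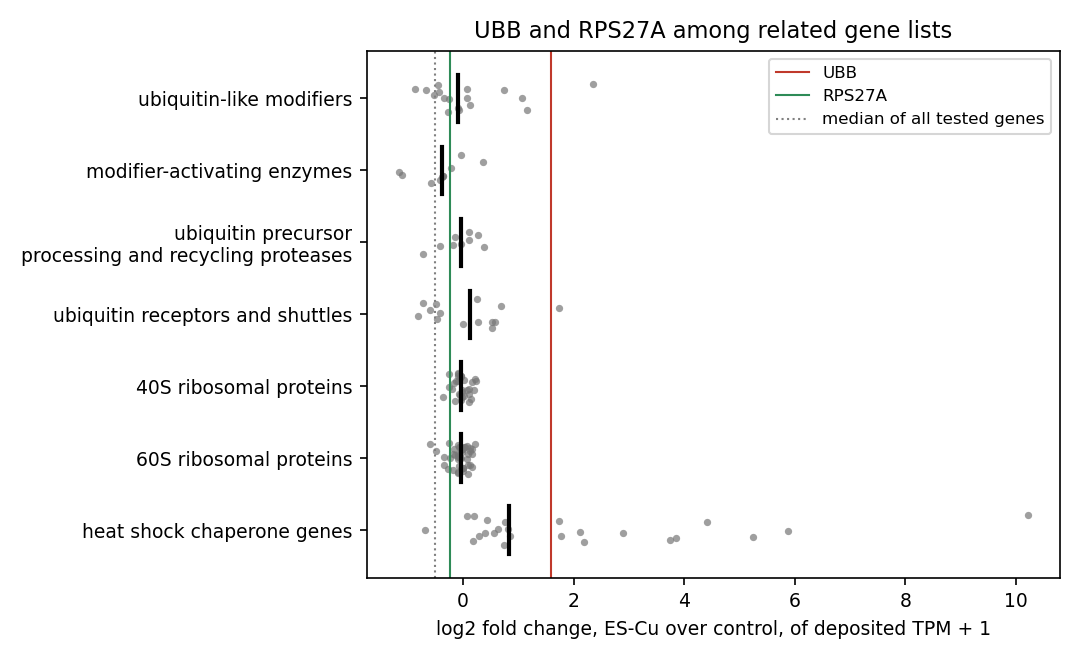
Log2 fold change, ES-Cu over control, of deposited TPM for the tested genes of 7 lists (grey points, with random vertical offsets) and their medians (black bars). Coloured lines mark UBB at 1.58 and RPS27A at -0.24, and the dotted line marks the median of all tested genes at -0.50.

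Other genes of the ubiquitin pathway were read from the same fit, and the words rose and fell are kept for genes called in the same direction as deposited and under both other scalings. That held for 13.5% of tested genes towards higher and 30.9% towards lower. Of 17 tested ubiquitin-like modifiers, 5 rose and 1 fell, with a median of -0.10. FAU is counted in this list and in that of the 40S subunit. MAP1LC3B, the autophagy modifier LC3B, rose (log2 fold change 2.35) with 303 ± 9.61 TPM in ES-Cu and 58.8 ± 0.888 TPM in control (SD, n = 3 each). It was the only modifier with a larger fold change than UBB. UBL3, a membrane-anchored ubiquitin-fold protein, rose by 1.16 on the log2 scale and GABARAPL1, a relative of LC3B, by 1.06.

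Enzymes that activate ubiquitin and its relatives numbered 10, of which 1 rose and 1 fell, with a median of -0.38. UBA3, the catalytic subunit of the enzyme for NEDD8, fell (-1.17) with 34.3 ± 2.71 TPM in ES-Cu and 78.0 ± 1.62 TPM in control. Its partner NAE1 was at -0.57 as deposited and -0.04 after median-of-ratios scaling. UBA7, which activates ISG15, was at -1.10 as deposited, -0.67 after median-of-ratios scaling and -0.47 after quantile normalization, and was not called in all 3. It had 3.17, 1.37 and 3.28 TPM in ES-Cu libraries 1 to 3 and 6.53, 6.04 and 6.83 TPM in control libraries 1 to 3. At such levels the added 1 TPM weighs on the fold change. No enzyme of this list had a fold change above that of UBB (0 of 10).

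Among 9 proteases that cut ubiquitin precursors or recover ubiquitin from chains, 3 rose and 1 fell, with a median of -0.03. USP14, a deubiquitinase of the proteasome, rose (0.38) with 128 ± 5.65 TPM in ES-Cu and 98.1 ± 3.88 TPM in control. USP5, which takes apart unanchored chains, fell (-0.73). UCHL5, another deubiquitinase of the proteasome, was at -0.41 as deposited and 0.12 after median-of-ratios scaling. Fold changes of all 9 lay below that of UBB, and those of 2 lay below that of RPS27A.

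Of 14 ubiquitin receptors and shuttle proteins, 7 rose and 2 fell, with a median of 0.13. SQSTM1, the autophagy receptor p62, rose (1.73) with 954 ± 8.57 TPM in ES-Cu and 288 ± 12.0 TPM in control, and it was the only one above UBB. UBQLN4, a shuttle to the proteasome, fell (-0.82), as did the autophagy receptor NBR1 (-0.73).

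The genes whose profile over the 6 libraries lay closest to each ubiquitin gene were found by the root mean square distance of log2(TPM + 1) values centred on each gene's own mean, among 5471 genes that averaged 20 TPM or more. For UBB these were SPSB1 (distance 0.0324), GLA (0.0415), LIF (0.0417), CCN2 (0.0572) and FOS (0.0614). For RPS27A they were ILF2 (0.00870), GRB2 (0.0108), PPIA (0.0167), CAST (0.0185) and PPME1 (0.0190). Of these 10 genes only PPIA, the abundant prolyl isomerase cyclophilin A, had a level near that of its ubiquitin gene, with 3104 ± 6.47 TPM in ES-Cu and 3659 ± 64.4 TPM in control. With 2 groups this distance mostly follows the size of the difference between them.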

How the data were processed

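TPM in the deposited table was made by the authors, with each of the 6 columns scaled to one total over the listed genes. Reads were single-end with 50 bases, per the labels' protocols. HISAT, Bowtie2 and GRCm38.p6, a mouse build, are named in the submitters' processing notes, although the table lists human genes; the quantification tool and annotation are not given in the sources used here. Depth is unknown, so no counting interval was computed.

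Genes averaging 1 TPM or more entered limma 3.58.1 (R 4.3.3) as log2(TPM + 1) values (empirical Bayes with trend, two-sided, Benjamini-Hochberg, threshold 0.05, no replicate block). Median-of-ratios scaling, quantile normalization, other pseudocounts and filters, removal of the 20 highest genes, no trend, a block for the replicate number and omission of single libraries were alternatives. On simulated ES-Cu and control libraries of 11927 genes, limma called 50 of 50 genes raised by a log2 value of 1, 46 of 50 raised by 0.5 and 13 of 11727 left unchanged. The simulation raised and lowered equal, small numbers of genes and held no shift of the bulk of genes. It therefore does not bear on calls that change with the scaling.

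Both ubiquitin genes and the 7 gene lists were chosen with earlier results of these data known. Named genes were FAU, 5 genes of most similar profile per ubiquitin gene, and up to 3 genes per list with the largest called change and a group mean of at least 5 TPM. Other ubiquitin genes taken by that rule are not reported here. Ubiquitin units were found by script in GENCODE transcripts, and 50-base stretches were matched without mismatch on either strand.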

Additional observations from a re-analysis of the deposited data

How the results depend on the processing

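TPM holds no counts, so the limits are the library scaling and the reads shared with other copies. Replicate numbers were not taken as pairs, for which a correlation of 0.1 was required. The correlations of the deviations from the group means were 0.0206, -0.0337 and 0.0107 for numbers 1, 2 and 3. The labels do not say what a number shares, and a weaker link could not be seen this way. With a replicate block 1614 genes were called higher and 8343 lower, and the differences of UBB and RPS27A were unaltered by construction. The difference in the log2 ratio of UBB to RPS27A was 1.77 under quantile normalization and 1.78 to 1.89 when single libraries were left out; the fold changes then ranged over 1.55 to 1.62 for UBB and -0.26 to -0.23 for RPS27A. Removing the 20 highest genes removes UBB itself, so no value is given for it there.

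After median-of-ratios scaling the log2 fold change was 2.13 for UBB and 0.30 for RPS27A, a reversal for the second gene, and 4428 genes were called higher and 4348 lower. Calls there were 11 higher and 1 lower for ubiquitin-like modifiers, 5 and 2 for activating enzymes, and 7 and 1 for proteases. They were 8 and 2 for receptors and shuttles, 31 and 0 for 40S, 44 and 0 for 60S, and 23 and 0 for chaperones. Under quantile normalization the log2 fold change was 1.38 for UBB and -0.39 for RPS27A, with 3780 genes higher and 4674 lower. Calls there were 7 higher and 5 lower for modifiers, 3 and 3 for activating enzymes, and 6 and 1 for proteases. They were 8 and 3 for receptors, 4 and 17 for 40S, 2 and 19 for 60S, and 23 and 1 for chaperones. With the 20 highest genes removed RPS27A was at -0.084, and 2331 of 12121 tested genes were called higher and 7380 lower. Of the lists, activating enzymes had 2 higher and 6 lower, proteases 3 and 2, 40S 14 and 2, and 60S 26 and 4. The removed genes include at least 1 of the 40S list, so its counts cover fewer than 31 genes there. Genes of the 60S list may be among them too. Without the trend 1571 of all tested genes were called higher and 8277 lower. For 40S these counts were 3 and 6, and for 60S 3 and 9. Without a filter 1840 of 16809 tested genes were called higher and 9140 lower, with 4 and 7 for 40S and 6 and 11 for 60S. Leaving out single libraries gave 4 to 9 higher and 11 to 16 lower genes of 60S. Over all tested genes it gave 1493 to 1590 higher and 8070 to 8323 lower. Beyond the scaling itself, the cause was not tested.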

Other observations

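The coefficient of variation of RPS27A was 0.245% in ES-Cu and 2.34% in control, and that of UBB was 2.14% in ES-Cu and 5.13% in control. The median over the 31 other 40S genes was 3.23% in ES-Cu and 3.27% in control, and 0 of them lay below RPS27A in ES-Cu. A value below it occurred in another list, with 1 of the 10 activating enzymes at 0.163% in ES-Cu. PPIA, at 0.208%, and GRB2, at 0.210%, were also lower, but both were picked for a profile close to that of RPS27A. That choice favours a small spread where RPS27A has one. The share of all tested genes below RPS27A is not given here. With 3 libraries such values are a description of these libraries.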
